A study of Rattus with 6 samples.

Results

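The genes described here are 6 by which marrow stromal cells act on immune cells, in cultured bone marrow mesenchymal stem cells (BMSCs) of rats: Tnfsf18, Cd274, Nos2, Il1rn, Lgals1 and Lgals9. They were found by symbol in a table of 16690 genes, where 5 of the 6 had a row. Nos2 had none, under its symbol or its NCBI Gene identifier 24599, and was not analysed here. Tnfsf18 was picked because it was among the largest falls between the groups in an earlier pass over these libraries, so its difference is a description and supports nothing by itself. The other genes were set beside it as companions by function.

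Marrow stromal cells meet T cells and macrophages through ligands on their surface and through secreted factors. Tnfsf18 encodes GITR ligand, a membrane protein of the tumour necrosis factor (TNF) superfamily, which binds the receptor GITR (gene Tnfrsf18) on T cells, regulatory T cells among them. Cd274 encodes PD-L1, which restrains T cells through PD-1, and Nos2 encodes the inducible nitric oxide synthase, a main route by which rodent stromal cells halt T cell division after interferon gamma. Il1rn encodes the secreted antagonist that occupies the interleukin 1 receptor without signalling. Lgals1 and Lgals9 encode galectins, sugar-binding proteins, of which galectin 9 is a ligand of the T cell receptor TIM-3 (gene Havcr2).

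The cells came from femurs and tibias of Sprague Dawley rats, wild-type in all groups, and were used at passages 3 to 5. Of the 6 libraries, 3 were of rats in which chronic kidney disease (CKD) had been modelled, and the other 3 of healthy rats. How CKD was brought about and the age of the animals are not given in the sources used here. The design text names RNA of the cells, whereas the extract protocol speaks of exosomes, so which RNA was sequenced is not settled. The disease model tag goes against title and column code in CKD replicate 1, tagged control, and in control replicate 2, tagged CKD. Libraries are numbered as in the table's columns, although in the labels CKD replicate 3 is titled as number 4. The numbers tie no library of one group to one of the other. Library names of CKD replicates 1 and 3 share a start, as do those of control replicates 1 and 2. The design text calls the libraries biological replicates but no label ties each to an animal, so p-values measure only how far these libraries spread, and that spread may be technical.

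For each gene, library values follow the order of replicates 1, 2 and 3. They are FPKM, fragments scaled to gene length and library depth, so levels of different genes can be compared per length. The libraries held 34404037 to 46892613 recovered fragments. The first replicate of each group stood apart from the other 2 of its group. By Pearson r between libraries, both first replicates were closest to each other, at 0.967. CKD replicate 1 reached 0.935 and 0.944 with the rest of its group, and control replicate 1 reached 0.951 and 0.947. The remaining pair correlated at 0.996 within CKD and at 0.998 within control. Control replicate 2, tagged CKD, was thus closest to control replicate 3, and CKD replicate 1, tagged control, to control replicate 1. The reason was not tested. Marrow stroma markers were high in all libraries, with a summed level of 7397 to 12377 FPKM in CKD and 8042 to 12578 FPKM in control over 12 of 12 genes, most of it from the collagen genes Col1a1 and Col1a2. None of the 12 was called by limma (3 higher and 1 lower at an unadjusted p under 0.05, against 1555 and 799 of all 10638 tested genes). Dcn (log2 difference 3.26), Cd44 (0.49) and Pdgfrb (0.52) were higher in every CKD library than in any control, and Thy1 (-0.42) was lower in every one. Groups of these 4 of the 12, or 33.3%, did not overlap, near the 27.8% of all tested genes. Eng lay between 10.8 and 21.8 FPKM in CKD and between 11.8 and 88.8 in control. What part these differences have in the results was not tested. Markers of haematopoietic cells and macrophages, 18 of 18 in the table, summed to 309, 3488 and 2336 FPKM in the CKD libraries, against 423, 22.8 and 14.3 FPKM in the controls. Their highest member was Lyz2, a lysozyme of myeloid cells, while Ptprc, the gene of CD45, was at 0.783, 15.5 and 11.4 FPKM in the CKD libraries and at 0.0140 to 1.33 FPKM in the controls. In the shorter lists, T and NK cell markers (3 of 8 in the table) summed to 2.88 to 52.1 FPKM in CKD and 0.0305 to 3.39 FPKM in control, in CKD nearly all of it Cd4 and Cd8a, which rat macrophages also carry. Markers of B cells (1 of 4 in the table), neutrophils (2 of 6), endothelium (5 of 6) and the erythroid lineage (1 of 5) summed to at most 2.42 FPKM in any library.

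Tnfsf18 (NCBI Gene 364031) was low in every CKD library and high in every control library. It stood at 11.4, 5.74 and 8.65 FPKM in the CKD libraries, against 39.5, 101.0 and 89.9 FPKM in the controls. The groups did not overlap, and the lowest control was 3.45 times the highest CKD library. The means were 8.61 ± 2.85 FPKM for CKD, against 76.8 ± 32.8 FPKM for control (SD, n = 3 each), an 8.92-fold difference of means. In rank, Tnfsf18 was between place 602 and 1519 of 16690 genes in the controls and between place 4166 and 6620 in CKD. The values rest on 494 to 1105 fragments in CKD and 4634 to 10547 in control. Counting error is therefore small beside the spread between libraries, with a 95% Poisson interval of 5.24 to 6.27 FPKM in the lowest library. These intervals cover counting error only.

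Across all 10638 tested genes, the same contrast from which Tnfsf18 was picked gave it a log2 fold change of -2.95 ± 0.41 SE, with a 95% interval of -3.97 to -1.93 (limma adjusted p = 0.0429). Because 1 is added to each FPKM before taking log2, fold changes of low genes come out too small. Among the 4 members that reached the filter of 1 FPKM in at least 3 libraries, 1 passed in the lower direction, against 0.733% of all tested genes in that direction and 2.07% in either. Groups of 1 of these 4 genes did not overlap, with CKD lower, against 9.59% of all tested genes in that direction and 27.8% in either. In the authors' deposited table the log2 fold change of Tnfsf18 was -3.22, at a q-value of 3.93e-11, where 4.6% of the 16690 genes had a q-value under 0.05 and were lower in CKD, and 11.3% had one in either direction. Since Tnfsf18 was picked from this comparison, nothing is read from either count. The call of Tnfsf18 was lost on leaving out CKD replicate 2, CKD replicate 3, or replicate 2 or 3 of the controls (limma adjusted p = 0.197, 0.223, 0.153 and 0.210), while the log2 fold change stayed between -3.37 and -2.70 over all 6 fits that leave out a library. Grouping by the disease model tag gave -0.93 (limma adjusted p = 0.819), and over all 17 alternatives the adjusted p ran from 4.71e-06 to 0.819.

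Macrophage markers moved with the group in replicates 2 and 3, opposite to Tnfsf18. All 14 tested markers had a log2 fold change above 0, with 3.25 as the median, but none was called (limma; 10 at an unadjusted p under 0.05), and in control replicates 2 and 3 there were 1 and 3 of the 18 at 0. With their mean as a covariate, the log2 fold change of Tnfsf18 was -1.97 (limma adjusted p = 0.181). Between the first replicates the markers did not follow the group, at 309 FPKM in CKD replicate 1 and 423 in control replicate 1, and there Tnfsf18 was 3.45 times as high in control. Between the means of replicates 2 and 3 the ratio was 13.3. In bulk libraries, fewer cells of a type and less RNA per cell cannot be told apart. What part other cells have in the difference was not tested.

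**Figure D1:**
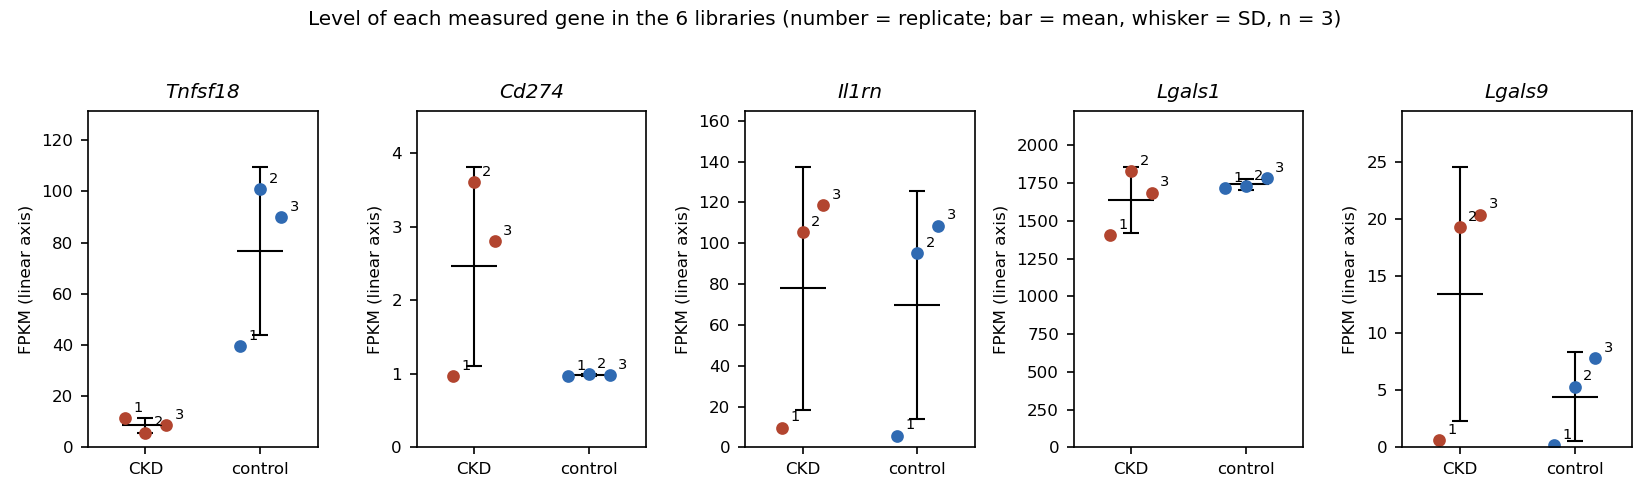
FPKM (linear axis, 1 panel a gene) of the 5 measured genes in CKD (red) and control (blue) libraries; points are libraries with their replicate number, bars are means and whiskers SD (n = 3). Tnfsf18 separates the groups, Cd274 is above 1 FPKM in 2 CKD libraries only, Il1rn and Lgals9 are low in both first replicates, and Lgals1 lies between 1404 and 1831 FPKM throughout.

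Of 18 ligand genes listed, 11 were in the table and 6 were tested; 3 had a log2 fold change above 0 and 3 below, and the median was 0.018 against 0.053 over all tested genes, and the 1 called was Tnfsf18, the gene picked from this comparison, against 0.733% of all tested genes called lower. Tnf, the founding inflammatory cytokine of the family, read 0.169, 8.24 and 7.81 FPKM in the CKD libraries, against 1.97, 0 and 0.0155 in the controls. Tnfsf13, which encodes the B cell factor APRIL, read 0.869, 11.1 and 7.49 FPKM in CKD and 2.43, 0.981 and 0.990 in control. Both were thus high in the 2 CKD libraries with the most macrophage markers, their groups overlapped, and neither passed (log2 fold change 1.66 ± 0.93 and 1.28 ± 0.72 SE, limma adjusted p = 0.345 and 0.351). Tnfsf9, the ligand of 4-1BB, averaged 5.27 ± 3.62 FPKM in the CKD libraries, against 5.76 ± 2.49 in the controls (SD, n = 3 each).

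On the receptor side, GITR itself could not be followed, since Tnfrsf18 had no row in the table and was not analysed here. Of 25 receptor genes, 18 were in the table and 10 were tested, with a median log2 fold change of -0.058. Tnfrsf11b, which encodes the decoy receptor osteoprotegerin, was the 1 called and rose in CKD, from 27.4 ± 7.15 to 67.1 ± 4.01 FPKM (SD, n = 3 each; limma adjusted p = 0.0429), against 1.33% of all tested genes in that direction. It too had been seen as called in the earlier pass. It kept its direction in 17 of 17 alternatives and its call in 7. The call was lost without any 1 of replicates 2 and 3 of either group (limma adjusted p = 0.196 and 0.223 for CKD, 0.153 and 0.197 for control), and the log2 fold change was 1.29 as reported and 0.29 when libraries were grouped by the tag. The receptors Tnfrsf12a (118.9 ± 20.7 FPKM in CKD, 93.0 ± 4.53 in control) and Tnfrsf21 (3.84 ± 2.70 and 1.57 ± 0.604) did not pass (limma adjusted p = 0.224 and 0.483).

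Cd274 (NCBI Gene 499342) was nearly level in 4 libraries and raised in 2. It stood at 0.971, 3.61 and 2.81 FPKM in the CKD libraries, against 0.969, 0.995 and 0.979 FPKM in the controls. CKD replicate 1 lay among the controls, so the groups overlapped. The means were 2.46 ± 1.35 FPKM for CKD, against 0.981 ± 0.0135 FPKM for control (SD, n = 3 each). CKD replicates 2 and 3 averaged 3.25 times control replicates 2 and 3, whereas the first replicates had a ratio of 1.00. Each value rests on 184 to 610 fragments, and the Poisson intervals of the 4 low libraries, from 0.836 to 1.14 FPKM in all, overlap one another.

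Only 2 libraries reached 1 FPKM, so Cd274 stayed outside the main test. Without the filter its log2 fold change was 0.72 ± 0.32 SE, with a 95% interval of -0.08 to 1.52, and it did not pass (limma adjusted p = 0.287; 0.258 with the filter at 0.1 FPKM). In the authors' deposited table its q-value was 0.0657, with a log2 fold change of 1.23. The 2 libraries in which Cd274 was high are those with the highest macrophage marker levels, and with the marker mean as a covariate the log2 fold change was 0.021. The part of these markers in the result was not tested.

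Genes around PD-L1 gave no call, where 2.07% of all tested genes were called in either direction. At an unadjusted p under 0.05, limma had 1555 of all 10638 tested genes higher in CKD and 799 lower. Of 23 checkpoint ligands, receptors and partners, 19 were in the table and 12 were tested; 6 lay on each side of 0, with a median log2 fold change of 0.037, and none passed (limma, 2 higher and 0 lower at an unadjusted p under 0.05, 0 called by limma-voom). Pdcd1, which encodes PD-1, and Pdcd1lg2, its other ligand, had no row in the table and were not analysed here. Cmtm6, which encodes a protein that keeps PD-L1 at the cell surface, read 35.2, 47.6 and 45.9 FPKM in the CKD libraries, against 34.0, 29.4 and 26.6 in the controls. Its groups did not overlap, but the limma test was not passed, at a log2 fold change of 0.50 ± 0.15 SE (adjusted p = 0.144). Cd80, a costimulatory ligand that also binds PD-L1, read 2.19, 1.81 and 1.79 FPKM in CKD and 5.81, 2.20 and 2.41 in control, so every CKD library was just below every control and control replicate 1 stood far above the rest (limma adjusted p = 0.357). Groups of 3 of the 12 tested genes of this list, or 25%, did not overlap, near the 27.8% of all tested genes. Sirpa, the myeloid receptor of CD47, read 4.83, 37.9 and 30.9 FPKM in the CKD libraries, against 16.8, 5.21 and 5.16 in the controls. Its means were 24.5 ± 17.4 and 9.06 ± 6.71 FPKM, but the groups overlapped and the first replicates went the other way. The ligand gene Cd47 averaged 32.7 ± 4.47 FPKM in CKD and 38.3 ± 4.61 in control (SD, n = 3 each). Neither passed (limma adjusted p = 0.462 and 0.390).

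Il1rn (NCBI Gene 60582) split the libraries by replicate and not by group. It stood at 9.73, 105 and 119 FPKM in the CKD libraries, against 5.77, 95.2 and 109 FPKM in the controls. Replicates 2 and 3 averaged 11.5 times replicate 1 in CKD and 17.7 times replicate 1 in control. Between the groups the means were close, at 77.9 ± 59.5 FPKM for CKD, against 69.9 ± 55.9 for control (SD, n = 3 each). The log2 fold change was 0.31 ± 1.44 SE, with a 95% interval of -3.24 to 3.86, and did not pass (limma adjusted p = 0.921). So wide an interval leaves a large difference in either direction undetectable with these libraries. Without both first replicates the log2 fold change was 0.14 ± 0.08 SE (limma adjusted p = 0.209).

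The level of Il1rn did not follow the macrophage markers. Control replicates 2 and 3, with the lowest marker sums (22.8 and 14.3 FPKM) and Ptprc at 0.0140 and 0.0204 FPKM, held 95.2 and 109 FPKM of Il1rn. In these libraries Il1rn ranked 647 and 561 of 16690 genes. Its agonists were low there, with Il1b, the secreted interleukin 1 beta, at 0.0182 and 0 FPKM and Il1a at 0.0186 and 0.0203 FPKM in control replicates 2 and 3.

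Il1b instead ranked the libraries in the order of the macrophage marker sums, though not in proportion to them, and why was not tested. It read 0.375, 4.51 and 3.62 FPKM in the CKD libraries, against 2.90 in control replicate 1, and was not called by limma at a log2 fold change of 1.05 ± 0.76 SE (adjusted p = 0.453). Il1r1, the signalling receptor, read 7.02, 46.3 and 44.3 FPKM in CKD and 13.0, 37.7 and 35.9 in control, low in both first replicates as Il1rn was (limma adjusted p = 0.968). Il1r2, the decoy receptor, averaged 0.891 ± 0.760 FPKM in the CKD libraries, against 1.43 ± 0.772 in the controls (SD, n = 3 each).

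Il1rap, which encodes the shared coreceptor of the interleukin 1 and 33 receptors, was the 1 called of 12 tested genes of that family and rose in CKD, against 1.33% of all tested genes called higher. It read 1.40, 1.41 and 1.34 FPKM in the CKD libraries, against 0.665, 0.706 and 0.755 in the controls, with little spread in either group and no overlap. All controls were under 1 FPKM, so Il1rap reached the filter only through the CKD libraries, and nothing is read from the count of calls. Without the filter its limma adjusted p was 0.0482. Its log2 fold change was 0.48 ± 0.08 SE (limma adjusted p = 0.0471), and the authors' deposited table gives a q-value of 2.44e-12. The direction held in 17 of 17 alternatives and the call in 6; it was lost on leaving out CKD replicate 2, CKD replicate 3, or replicate 2 or 3 of the controls (limma adjusted p = 0.226, 0.256, 0.202 and 0.211), and over all alternatives the adjusted p ran from 0.00346 to 0.832.

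Of the 20 interleukin 1 family genes, 17 were in the table and 12 were tested; 9 were above 0 in log2 fold change, and the median was 0.44 against 0.053 over all tested genes. Il33, an alarmin of stromal cells, read 0.240, 3.45 and 4.66 FPKM in the CKD libraries, against 12.4, 8.41 and 10.0 in the controls. Every CKD library was below every control. Il1rl1, which encodes the interleukin 33 receptor ST2, read 106, 39.8 and 51.9 FPKM in CKD and 15.2, 35.0 and 30.3 in control, with every CKD library above every control. Neither passed (log2 fold change -1.82 ± 0.58 and 1.22 ± 0.46 SE, limma adjusted p = 0.156 and 0.202). Groups of 4 of the 12 genes, or 33.3%, did not overlap, against 27.8% of all tested genes.

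**Figure D2:**
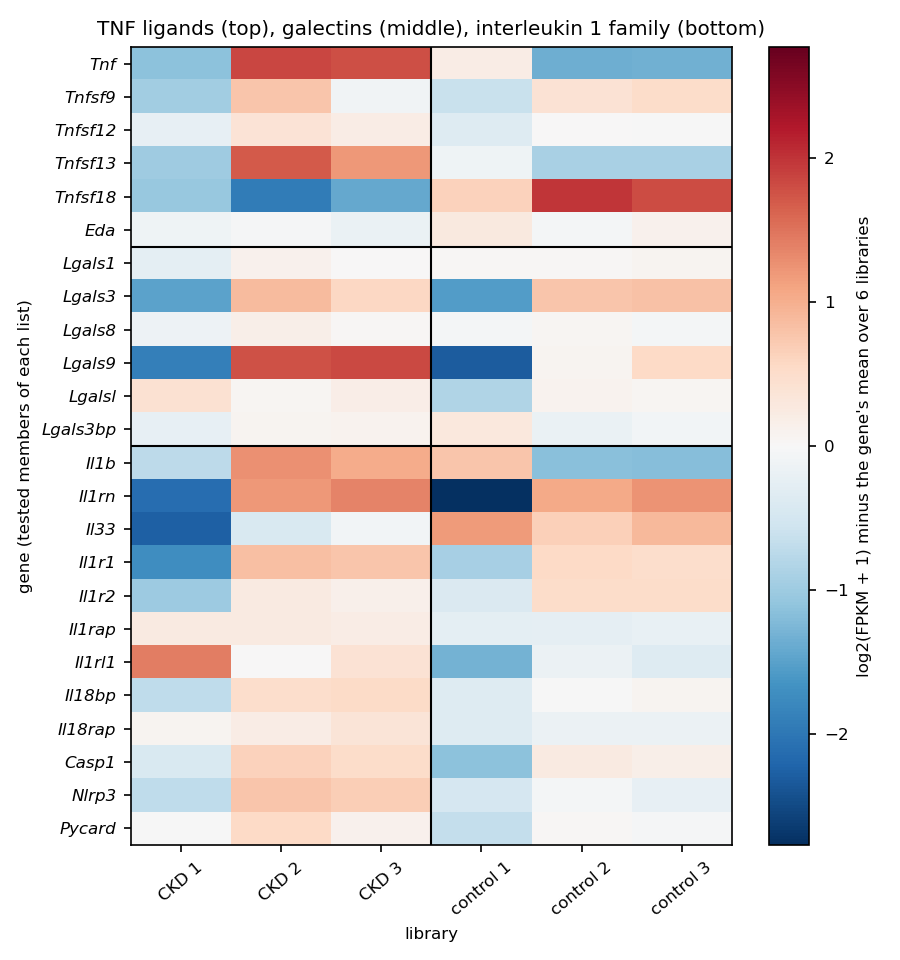
Colour shows log2(FPKM + 1) minus the gene's mean over the 6 libraries, for each tested TNF ligand, galectin and interleukin 1 family gene (rows) in each library (columns; black lines part the lists and the groups). Tnfsf18 is blue in all CKD libraries, while Lgals3, Lgals9, Il1rn and Il1r1 are blue in both first replicates.

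Lgals1 (NCBI Gene 56646) was the most abundant of the 5 genes in every library and nearly level. It stood at 1404, 1831 and 1687 FPKM in the CKD libraries, against 1716, 1729 and 1784 FPKM in the controls. The groups overlapped, with the lowest and the highest library both in CKD. It ranked between 25 and 29 of 16690 genes in all 6 libraries. Means were 1640.4 ± 217 FPKM for CKD, against 1743 ± 36.1 for control (SD, n = 3 each). The log2 fold change was -0.10 ± 0.13 SE, with a 95% interval of -0.41 to 0.22 (limma adjusted p = 0.703). Without CKD replicate 1 the log2 fold change was 0.012.

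Lgals9 (NCBI Gene 25476) spanned the widest relative range of the 5. It stood at 0.608, 19.4 and 20.4 FPKM in the CKD libraries, against 0.216, 5.33 and 7.83 FPKM in the controls. The first replicate was the lowest of each group, and replicates 2 and 3 averaged 32.7 times it in CKD and 30.4 times it in control. Between the first replicates CKD was 2.81 times control, and between the means of replicates 2 and 3 it was 3.02 times. The low values rest on 37 and 16 fragments, with Poisson intervals of 0.428 to 0.838 and 0.124 to 0.351 FPKM. Rat Lgals9 is related in sequence to Lgals5, which has no row in the table, so fragments could have been shared and the value is uncertain.

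The group means of Lgals9 were 13.5 ± 11.1 FPKM for CKD, against 4.46 ± 3.88 for control (SD, n = 3 each), and the groups overlapped. Its log2 fold change of 1.12 ± 1.26 SE, with a 95% interval of -1.99 to 4.24, did not pass (limma adjusted p = 0.638). Without both first replicates it was 1.48 ± 0.14 SE and passed (limma adjusted p = 0.000187), in a fit that called 5851 of 10638 genes. That fit was chosen after seeing the data, and over all 17 alternatives the adjusted p ran from 0.000187 to 0.999. With the macrophage marker mean as a covariate the log2 fold change was -0.011. The markers were highest in the 2 libraries with the most Lgals9, yet control replicates 2 and 3, with the lowest marker sums, held 5.33 and 7.83 FPKM of it. Havcr2, which encodes TIM-3, was at most 0.236 FPKM in any library.

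Of 11 galectin genes listed, 7 were in the table and 6 were tested; 3 had a log2 fold change above 0 and 3 below, and the median was 0.0084, and none passed (limma; 0 at an unadjusted p under 0.05 and 0 called by limma-voom). Groups of none of the 6 were separate, where 27.8% of all tested genes had separate groups. Lgals3, the galectin of macrophages and fibroblasts, read 113, 586 and 477 FPKM in the CKD libraries, against 108, 544 and 566 in the controls, low in both first replicates like Lgals9 and Il1rn. Lgals8 stayed between 25.9 and 32.0 FPKM and Lgals3bp, which encodes a glycoprotein bound by galectin 3, between 63.2 and 90.6 FPKM. Lgalsl was low in control replicate 1 only, at 9.78 FPKM, and averaged 21.4 ± 2.82 FPKM in the CKD libraries, against 16.1 ± 5.51 in the controls (SD, n = 3 each).

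**Figure D3:**
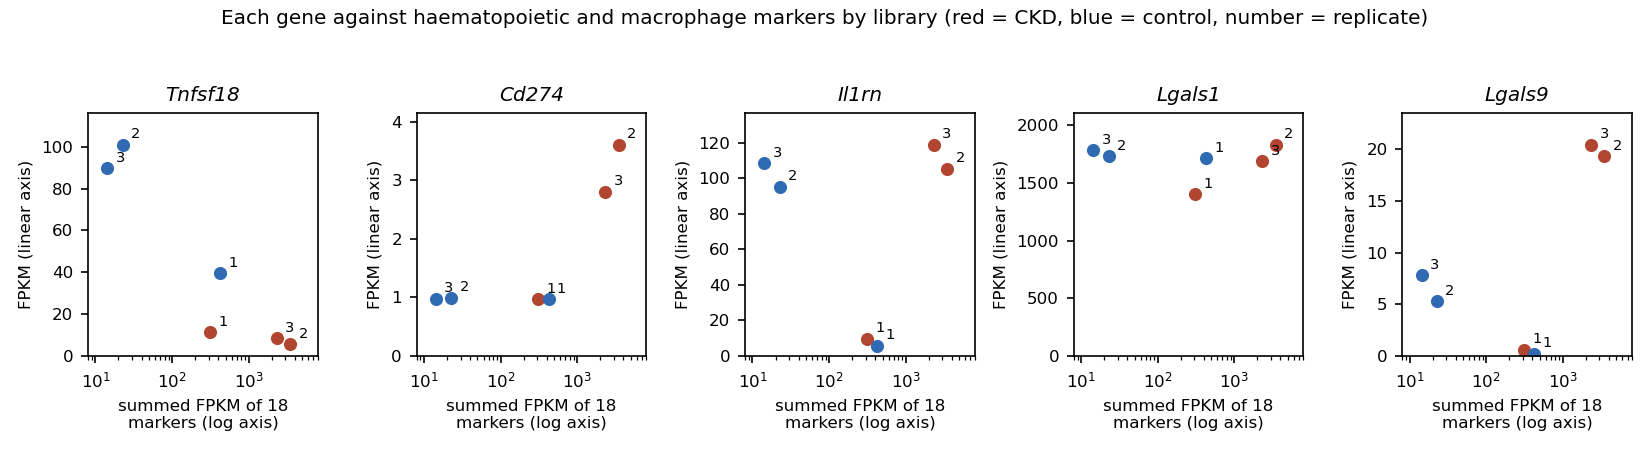
FPKM of each gene (linear axis) against the summed FPKM of 18 haematopoietic and macrophage markers (log axis); points are libraries with their replicate number, red for CKD and blue for control. Cd274 is above 1 FPKM only in the 2 libraries with sums of 2336 and 3488 FPKM, while Il1rn is near 100 FPKM at both ends of the axis.

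With Nos2 not analysed, the genes that feed or oppose nitric oxide synthesis give the setting. Of 16 genes, 13 were in the table and 10 were tested; 4 had a log2 fold change above 0 and 6 below, and the median was -0.16, and none passed (limma; 0 higher and 1 lower at an unadjusted p under 0.05, 0 called by limma-voom). Nos1 and Nos3 had no row in the table either. Ass1, which rebuilds arginine, and Gch1, the first enzyme of the tetrahydrobiopterin cofactor, stayed at or below 0.334 and 0.231 FPKM in all libraries. Arg1, the arginase that competes for arginine, averaged 15.2 ± 7.39 FPKM in the CKD libraries, against 15.8 ± 0.447 in the controls (limma adjusted p = 0.821), with CKD replicate 1 the lowest library at 6.85 FPKM. Ddah2, which breaks down inhibitors of nitric oxide synthase, read 18.6, 19.8 and 18.5 FPKM in the CKD libraries, against 13.7, 39.4 and 43.5 in the controls (limma adjusted p = 0.466). Gchfr, the feedback regulator of Gch1, averaged 1.25 ± 0.801 FPKM in the CKD libraries, against 2.30 ± 1.21 in the controls (SD, n = 3 each).

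Nos2 and Cd274 are known targets of interferon gamma, and 8 of 9 genes of that pathway were in the table, 7 of them tested. There, 4 had a log2 fold change above 0 and 3 below, and the median was 0.081, and none passed (limma; 0 higher and 1 lower at an unadjusted p under 0.05, 0 called by limma-voom). Socs3, a feedback inhibitor of cytokine signalling, averaged 28.8 ± 14.7 FPKM in the CKD libraries, against 19.2 ± 7.59 in the controls (limma adjusted p = 0.632).

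Among other factors by which stromal cells act on immune cells, limma called none. Of 21 genes, 17 were in the table and 14 were tested; 9 were above 0 in log2 fold change, and the median was 0.32 (limma; 2 higher and 0 lower at an unadjusted p under 0.05, 0 called by limma-voom). Tgfb1, the gene of the immunosuppressive cytokine TGF-beta 1, averaged 51.3 ± 2.74 FPKM in the CKD libraries, against 37.1 ± 3.23 in the controls, with no overlap (SD, n = 3 each; limma adjusted p = 0.0736). Vcam1, an adhesion molecule that binds leukocytes, read 2.12, 8.78 and 6.94 FPKM in CKD and 1.80, 0.829 and 1.56 in control, also with no overlap (limma adjusted p = 0.159). Groups of these 2 of the 14 tested genes, or 14.3%, did not overlap, against 27.8% of all tested genes. Stc1, a secreted glycoprotein, read 0.865, 80.9 and 89.4 FPKM in the CKD libraries, against 2.26, 3.45 and 3.58 in the controls, so that CKD replicate 1 lay below all controls (limma adjusted p = 0.374). In the authors' deposited table the q-values of Tgfb1, Vcam1 and Stc1 were 0.00869, 0.00605 and 0.0276. Tnfaip6, an anti-inflammatory secreted protein, read 12.0, 26.3 and 23.0 FPKM in CKD and 17.1, 3.92 and 3.87 in control (limma adjusted p = 0.233). Over all 8 lists, 143 genes counted once, 110 were in the table and 77 were tested, of which 2 were called higher and 1 lower, against 1.33% and 0.733% of all tested genes. Nothing is read from these calls, since Tnfsf18 was picked from this comparison and Il1rap reached the filter only through CKD. At an unadjusted p under 0.05, 9 of the 77 were higher and 4 lower (limma), against 1555 and 799 of all 10638 tested genes. Groups of 15 of the 77, or 19.5%, did not overlap, against 27.8% of all tested genes.

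The 5 genes differed from one another in how they varied over the libraries. Across the 6 libraries, where the first replicates stand apart, Pearson r on log2(FPKM + 1) was 0.94 between Il1rn and Lgals9, 0.78 between Cd274 and Lgals9 and -0.77 between Tnfsf18 and Cd274. It was 0.031 between Tnfsf18 and Il1rn. With 6 libraries in clusters these are descriptions only. By level, Lgals1 was first in every library, and Tnfsf18 was second in CKD replicate 1, control replicate 1 and control replicate 2, where Il1rn came next; in the other 3 libraries Il1rn was second. Between control replicates 2 and 3 the order of Tnfsf18 and Il1rn turned, so these neighbours did not differ beyond their spread there.

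Genes most like each member were taken from 1957 or 1958 tested genes with a range of at least 1 on the log2 scale. For Tnfsf18 they included Ntm, which encodes the adhesion protein neurotrimin (r = 0.997), and Mansc1 (r = 0.996). Ntm read 13.2, 10.2 and 12.7 FPKM in the CKD libraries, against 31.8, 50.9 and 47.3 in the controls. For Il1rn they were Ptafr, the receptor of platelet-activating factor (r = 0.998), Rhoj, a small GTPase (r = 0.996), and Ipmk, an inositol phosphate kinase (r = 0.996). Ptafr read 2.15, 6.06 and 5.74 FPKM in CKD and 1.78, 5.56 and 5.69 in control. The fall of Ntm in CKD and the dip of Ptafr in both first replicates follow from picking by r over these same libraries. Nothing is read from either. For Lgals9 they were Nab2, LOC102547398 and Pld1 (r = 0.997, 0.996 and 0.994), and for Lgals1 they were Ucp2, Lsp1 and Cebpd (r = 0.990, 0.982 and 0.981), although Lgals1 itself spans only 0.38 on that scale.

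**Figure D4:**
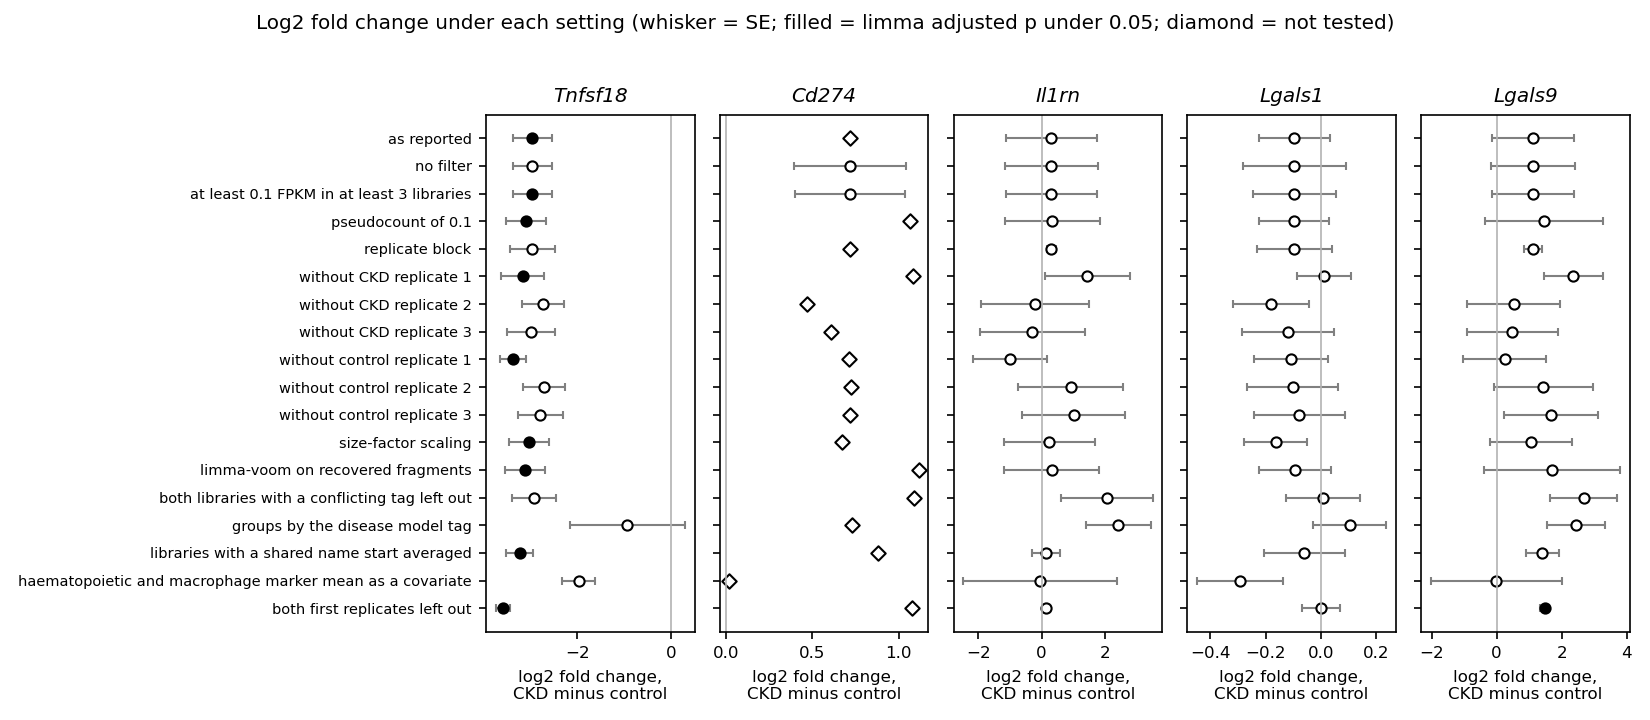
Log2 fold change of each gene, CKD minus control, as reported and under 17 other settings (rows; each panel has its own x axis); whiskers are SE, filled circles have a limma adjusted p under 0.05, and diamonds were not tested. Tnfsf18 stays below 0 throughout, from -3.58 to -0.93, while Il1rn and Lgals1 cross 0.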

How the data were processed

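Per the file headers, the authors deposited 1 table with an FPKM value per gene and library, mean normalized counts per group, a fold change, its log2, a p-value and a q-value, written with decimal commas. The submitters' processing notes name the build mRatBN7.2, DESeq 1.34.1, DESeq2 1.22.2, HTSeq 0.11.2, SAMtools 1.9, HISAT2 2.1.0 and FastQC 0.11.9, with no settings. No gene in the table has a mean normalized count below 1.03.

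Libraries were grouped by column code and title, and numbered by column code. The comparison used log2(FPKM + 1) in limma 3.58.1 under R 4.3.3, with its trended variance prior. Tests were two-sided and adjusted by Benjamini-Hochberg, called at 0.05, over the 10638 genes that reached 1 FPKM in 3 or more libraries. Whole fragments were recovered from FPKM and group means (100140 of 100140 values whole within 0.01) and used for depth, Poisson intervals at 95% and limma-voom. At median gene length, 3 fragments equal 0.0198 to 0.0270 FPKM. The fit was tested on simulated, independently drawn libraries, where only the sign of the median estimate was required to be right. The real libraries formed clusters, so nothing about the calls is read from that simulation.

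The members and the 8 gene lists were chosen with earlier results of these data known. Named genes are the members, their direct partners, called genes of the lists, up to 2 further genes per list with the largest log2 fold change, the 3 genes most like each tested member, and the lowest and highest of each marker list where given. Ptprc, Cd4, Cd8a, Tgfb1, Vcam1, the stroma markers other than Col1a1, Tnfsf9, Nos1 and Nos3 were named after their values were seen, as were the neighbouring genes given at the end. Some genes that this rule names are not reported here.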

Additional observations from a re-analysis of the deposited data

How the results depend on the processing

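Tnfsf18 kept its direction in 17 of 17 alternatives and its call in 8. The call was lost at a log2 fold change of -2.95 with no filter (limma adjusted p = 0.0558), -2.91 without both libraries with a conflicting tag (0.0710), -0.93 with groups by that tag (0.819) and -1.97 with the macrophage marker mean as a covariate (0.181); over the fits that leave out 1 library it ran from -3.37 to -2.70. With the replicate number of the column codes as a block it was -2.95 and not called (0.0966), and 88 genes were called in all. The numbers share no stated animal or batch, and deviations of same-numbered libraries correlated at 0.036, -0.031 and 0.11, and not every library was closest to its own number. Cd274 moved to 0.021 with the covariate, and ran from 0.47 to 1.08 when 1 library was left out. Il1rn turned to -0.053 with the covariate and ran from -0.995 to 1.44 when 1 library was left out, and Lgals9 turned to -0.011 with the covariate. Lgals9 gained a call at 1.48 without both first replicates and ran from 0.25 to 2.35 when 1 library was left out. Lgals1 turned to 0.0062 without both libraries with a conflicting tag, 0.10 with groups by the tag and 0.0010 without both first replicates, and ran from -0.18 to 0.012 when 1 library was left out. Il1rn and Lgals1 passed in none of the 17 alternatives, and Lgals9 passed in that 1 only. Why these values moved was not tested.

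Over all genes 220 were called. The count was 133 without a filter, 97 in limma-voom on recovered fragments, 17 with the covariate, 5851 without both first replicates and 0 with groups by the tag (limma; 641 at an unadjusted p under 0.05). It ran from 6 without control replicate 3 to 1602 without CKD replicate 1. A filter at 0.1 FPKM, a pseudocount of 0.1, size-factor scaling, leaving out both libraries with a conflicting tag and averaging libraries with a shared name start gave 202, 186, 219, 298 and 259. The fit without both first replicates was chosen after seeing the data.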

Other observations

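Nos2, Lgals5 and Lgals9 follow one another among the protein-coding genes of a reference table of another assembly (GRCr8), used here for gene order only. Of the genes next to Nos2 and Lgals9, Ksr1, a scaffold of the MAP kinase pathway, read 0.212, 0.754 and 0.828 FPKM in the CKD libraries, against 0.366, 0.519 and 0.551 in the controls, and it was not tested. Lyrm9, on the far side of Nos2, averaged 1.18 ± 0.0908 FPKM in CKD and 1.61 ± 0.557 in control (SD, n = 3 each; limma adjusted p = 0.424).

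Tnfsf18 lies between Tnfsf4 and Faslg in the same table, 2 further TNF ligand genes. Faslg, which encodes the death ligand of FAS, was at most 0.0134 FPKM in any library, below the worth of 3 fragments for a gene of median length, and Tnfsf4 was not analysed here. The genes beyond them, Prdx6, a peroxiredoxin, and Suco, averaged 163.6 ± 27.1 and 9.71 ± 0.166 FPKM in CKD and 184.8 ± 21.4 and 9.22 ± 1.46 in control (SD, n = 3 each), and neither passed (limma adjusted p = 0.529 and 0.727). Next to Cd274, Plgrkt, which encodes a plasminogen receptor, averaged 13.7 ± 0.932 FPKM in CKD and 15.8 ± 1.49 in control (limma adjusted p = 0.304). Psd4, beside Il1rn, read 2.16, 4.25 and 3.96 FPKM in the CKD libraries, against 1.13, 4.47 and 4.47 in the controls, low in both first replicates as Il1rn was (limma adjusted p = 0.896).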
